A study of Rattus norvegicus with 6 samples.

Results

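The Pde6c locus holds 462 of the 22152541 CpGs listed in the hippocampal whole-genome bisulfite sequencing (WGBS) of iron-deficient and iron-sufficient rats. It covers chr1:242486849-242526883 in the rat build rn4, which is the window chr1:242506849-242506883 and the 20 kb on either side of it. The window has 6 CpGs and was chosen by the study from the methylation of these same 6 samples and placed by it in the gene body of Pde6c. Its methylation, its coverage and the criteria met by its CpGs are therefore given below as a description, without a test. In the study the window was called by its own program, Defiant, and not by Metilene, the other program run on these samples. The tests are on the 239 CpGs below the window and the 217 above it. The nearest of them are not independent of that choice, since the study's rule reads neighbouring CpGs to end a region. In the RefSeq annotation of another build, GRCr8, Pde6c lies between the protein-coding genes Rbp4 and Fra10ac1. Whether the window falls in an exon or an intron was not analysed here, as it needs gene models of rn4.

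Pde6c encodes the catalytic subunit of the phosphodiesterase of cone photoreceptors, the cells of the retina that serve colour vision. The enzyme breaks down cyclic GMP when light is absorbed, which closes the cation channels of the cone outer segment, and loss of the gene causes a loss of cone function. The gene is known for its role in the retina and not for one in the hippocampus. Methylation of cytosine in CpG dinucleotides is carried by most CpGs of a mammalian genome and is typically absent or low at active promoters and at other active regulatory elements. No expression was measured here, so nothing can be said of Pde6c transcription.

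The 3 iron-deficient samples are hippocampi of Sprague-Dawley pups (CD1 Sprague-Dawley in the methods of the study) whose dams ate a diet with 4 ppm iron from gestational day 2 and a diet with 200 ppm iron from postnatal day 7. The 3 iron-sufficient samples come from pups of dams kept on 200 ppm iron throughout. All 6 hippocampi were taken at postnatal day 15, when the dams of the iron-deficient pups had already been on the iron-sufficient diet. The study, citing earlier work, states that this feeding leaves the hippocampus deficient in iron at postnatal day 15. The hippocampus is a mixture of cell types, and in bulk DNA a changed mixture of cells and a changed methylation within cells cannot be told apart. The sources used here do not say whether any of the 6 pups were littermates.

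Each file gives, for every CpG, the methylated fraction of its reads and its coverage, which is the number of reads there. Total coverage over all CpGs ranged from 432692526 to 780127386 reads per sample and the median coverage per CpG from 17 to 33. Methylation over all CpGs lay between 68.5% and 68.8% in the iron-sufficient samples and between 68.6% and 69.9% in the iron-deficient ones. Within the locus the samples listed 341 to 450 of the 462 CpGs. Of these, 87 CpGs (18.8%) reached a coverage of 10 in every one of the 6 samples, namely the 6 CpGs of the window, 39 below it and 42 above it. The share over all CpGs of the series was 21.2%. Values below rest on these 87 CpGs unless another choice is named.

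The window was methylated at 49.2%, 37.5% and 35.5% in the iron-sufficient replicates 1, 2 and 3. It was methylated at 100%, 92.2% and 68.8% in the iron-deficient replicates 1, 2 and 3. The groups did not overlap, and the gap between the lowest iron-deficient and the highest iron-sufficient sample was much narrower than the distance between the means. The means were 40.8% ± 7.4 (SD, n = 3) and 87% ± 16.3 (SD, n = 3), a difference of 46.2 percentage points. With group means weighted by coverage the difference was 45.6 percentage points.

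The 6 CpGs of the window lie 12, 10, 4, 4 and 4 nt apart, a density of 17.1 CpGs per 100 nt compared with 1.15 per 100 nt over the locus. The first CpG, at 242506849, was methylated at 40%, 28.8% and 30.4% in iron-sufficient replicates 1, 2 and 3 and at 100%, 85.1% and 75.9% in the iron-deficient animals. The third CpG, at 242506871, was methylated at 41.2%, 28.3% and 25.5% in the iron-sufficient animals and at 100%, 93.4% and 64.4% in the iron-deficient animals. At both CpGs every iron-deficient sample was above every iron-sufficient one.

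The second CpG, at 242506861, stood apart from the others of the window. It was methylated at 93.9%, 84.9% and 80% in iron-sufficient replicates 1, 2 and 3 and at 100%, 99.1% and 91.3% in the iron-deficient animals. The groups overlapped at this CpG, where iron-deficient replicate 3 was below iron-sufficient replicate 1, and its difference of 10.5 percentage points was much smaller than those of its neighbours 12 nt below and 10 nt above. Without it the remaining 5 CpGs gave 31.5% ± 7.6 (SD, n = 3) and 84.9% ± 18.9 (SD, n = 3), a difference of 53.4 percentage points. In the iron-sufficient samples these 5 CpGs were nearly equal to each other, within 40% to 41.2% in replicate 1, 26.4% to 28.8% in replicate 2 and 24.1% to 30.4% in replicate 3.

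The last 3 CpGs, at 242506875, 242506879 and 242506883, repeated the third in the iron-sufficient group. Iron-sufficient replicate 1 had 14 methylated reads of 35 at each of them. Iron-sufficient replicate 2 had 15 of 53 at the third CpG and at the next 2, and 14 of 53 at the last, and replicate 3 had 14 of 54, 14 of 54 and 13 of 54 at the last 3. CpGs this close together can be covered by the same reads, so the CpGs of the window are not independent measurements.

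In the iron-deficient group the last 3 CpGs were less uniform. Iron-deficient replicate 1 had 16 methylated reads of 16 at each of the 6 CpGs of the window. Iron-deficient replicate 2 had 111 of 122, 119 of 129 and 83 of 89 at the last 3 CpGs. Iron-deficient replicate 3 had 27 of 59 (45.8%) at 242506875, between 66.1% and 62.5% at the next 2 CpGs, and at 242506875 the highest iron-sufficient value was 40%.

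The depth limits how closely each animal is known. At 242506871 the 95% Wilson interval was 26.4% to 57.8% in iron-sufficient replicate 1, 18% to 41.6% in replicate 2 and 15.8% to 38.3% in replicate 3. It was 80.6% to 100% in iron-deficient replicate 1, 87.6% to 96.6% in replicate 2 and 51.7% to 75.4% in replicate 3. These intervals cover counting error only, since several reads can come from one molecule where no molecular identifier marks it. They overlap between iron-sufficient replicate 1 and iron-deficient replicate 3.

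The mean coverage of the window per CpG was 32.8, 52.8 and 53 in iron-sufficient replicates 1, 2 and 3 and 16, 113.7 and 63.5 in the iron-deficient animals. Relative to the median coverage of all CpGs of the same sample, this was 1.56, 2.4 and 1.89 times in the iron-sufficient group and 0.593, 3.44 and 3.74 times in the iron-deficient group. The iron-deficient group held both the lowest and the highest ratios, and the group means were 1.95 ± 0.42 and 2.59 ± 1.74 (SD, n = 3 each). The fully methylated sample, iron-deficient replicate 1, was the one with the lowest coverage of the window. Whether coverage has a part in the methylation difference was not tested.

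**Figure D1:**
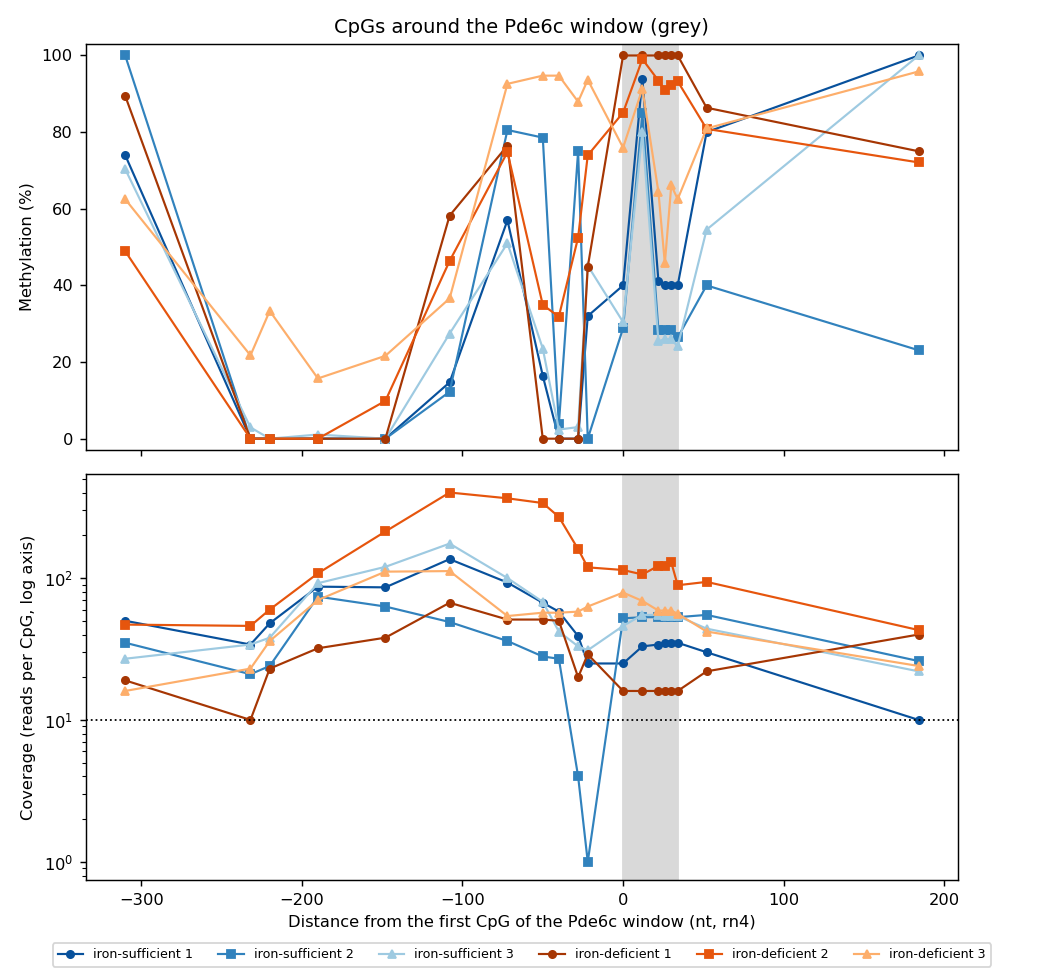
Methylation in percent (upper panel) and coverage in reads per CpG on a log axis (lower panel) against the distance in nt from the first CpG of the Pde6c window, one line per sample, with the window in grey and a dotted line at a coverage of 10. Within the window the iron-deficient samples lie at 45.8% to 100% and the iron-sufficient ones at 24.1% to 41.2%, except at the second CpG, and below it a run of CpGs is at or near 0% in all samples except iron-deficient replicates 2 and 3.

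The window lies next to a short stretch of unmethylated DNA. From 242506617 to 242506701, 232 to 148 nt below the window, 4 CpGs in a row had 0 methylated reads of 255 in iron-sufficient replicate 1, 0 of 182 in replicate 2 and 2 of 284 (0.704%) in replicate 3. Iron-deficient replicates 1, 2 and 3 had 0 of 103, 21 of 427 (4.92%) and 52 of 240 (21.7%). One read can cover several of these CpGs and is then counted at each. At the best covered single CpG, counts of 0 of 87, 74 and 38 in iron-sufficient replicates 1 and 2 and iron-deficient replicate 1 allow shares of up to 3.45%, 4.05% and 7.89%, for counting error only. Methylation of this run thus differed within the iron-deficient group, from 0% to 21.7%, and the stretch was picked after its profile was seen, so it has no test.

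Between this run and the window methylation went up and down, and not alike in all samples. At 242506777, 72 nt below the window, it was 57%, 80.6% and 51% in the iron-sufficient animals and 76.5%, 74.8% and 92.6% in the iron-deficient ones, so every sample was above the level of the run. At 242506799, 50 nt below the window, it was 16.4%, 78.6% and 23.5% in iron-sufficient replicates 1, 2 and 3 and 0%, 34.9% and 94.7% in the iron-deficient animals. At 242506809, 40 nt below, it was 0%, 3.7% and 2.38% in the iron-sufficient animals and 0%, 31.9% and 94.7% in the iron-deficient animals, so 4 of the 6 samples were again near 0%. Iron-deficient replicate 3 was almost fully methylated at both CpGs, while iron-deficient replicate 1 had 0 methylated reads of 51 and of 50, which allows up to 5.88% and 6%.

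The order of the iron-deficient animals thus turned over within a short distance. Over the 4 CpGs next below the window, 50 to 22 nt away, iron-deficient replicates 1, 2 and 3 were methylated at 8.67%, 42.4% and 92.8%, whereas in the window they were at 100%, 92.2% and 68.8%. The iron-sufficient animals were at 10.1%, 43.3% and 18.4% over the same 4 CpGs, where replicate 2 had a coverage of only 1 at the last of them. The groups overlapped over these 4 CpGs, at 23.9% ± 17.3 and 47.9% ± 42.3 (SD, n = 3 each). The iron-deficient spread there was larger than the difference between the groups.

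The CpG at 242506741, 108 nt below the window, was the flanking CpG with the largest increase among those whose groups did not overlap. It had 14.7%, 12.2% and 27.4% in iron-sufficient replicates 1, 2 and 3 and 58.2%, 46.4% and 36.6% in the iron-deficient animals, with coverages from 49 to 401. The 49 was in iron-sufficient replicate 2 and the 401 in iron-deficient replicate 2, whose median coverages over all CpGs were 22 and 33. Whether this CpG lies in a repeat was not analysed. The means were 18.1% ± 8.1 and 47.1% ± 10.8 (SD, n = 3 each). No test is given for this CpG or for the others below that were named because their groups did not overlap. Without iron-deficient replicate 1, whose value was the highest, the difference was 23.4 percentage points instead of 28.9.

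On the other side, the CpG at 242506901, 18 nt above the window, was methylated at 80%, 40% and 54.5% in iron-sufficient replicates 1, 2 and 3 and at 86.4%, 80.9% and 81% in the iron-deficient animals. The groups did not overlap, although iron-sufficient replicate 1 was close to the lowest iron-deficient sample, and the means differed by 24.5 percentage points. Without iron-sufficient replicate 2, the lowest sample, the difference was 15.45 percentage points.

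Of the 81 CpGs of the flanks with sufficient coverage, 4 (4.94%) had groups that did not overlap together with a difference of at least 10 percentage points. All 4 were higher in iron deficiency. Over all 4686933 CpGs of the series with sufficient coverage the share in either direction was 4.88%, so the flanks were at the level of the genome. The other 2 of the 4 lay at 242514934, 8051 nt above the window, and at 242505579, below it at a distance of -1270 nt. At 242514934 the difference of 23.8 percentage points rested on iron-sufficient replicate 3, with 31.2% at a coverage of 16 against 98.6% in replicates 1 and 2 and 100% in all iron-deficient samples, and it was 1.36 percentage points without that sample. At 242505579 the iron-sufficient animals had 77.8%, 76.7% and 82.9% and the iron-deficient ones 100% each. This last CpG falls outside the rule for named CpGs and is given to complete the 4.

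The criteria of the study for a differentially methylated CpG are 10 or more reads in every sample, group means weighted by coverage that lie 10 or more percentage points apart, and a p-value no higher than 0.05 from the weighted means and variances. They were met by 3 of the 81 flanking CpGs (3.7%), all higher in iron deficiency, compared with 3.21% of the CpGs of the series. These were 242505579, 242506741 and 242523874, the last of which lies 16991 nt above the window, has overlapping groups and was named after its values were seen. In the window 5 of 6 CpGs met them, which is part of what the window was chosen on. The exception was 242506875, where the groups did not overlap but iron-deficient replicate 3 was at 45.8%, while the second CpG met them although its groups overlapped. Without iron-deficient replicate 2, the sample with the highest coverage, 0 of 6 CpGs of the window met the criteria, and without iron-deficient replicate 1 only 1 did. All 6 met them without iron-deficient replicate 3, 5 without iron-sufficient replicate 1 and 4 without iron-sufficient replicate 2 or 3. A group of 2 samples also makes the p-value harder to reach, so a lower count cannot be laid on the sample alone. Without iron-sufficient replicate 2 the flanking CpGs that met the criteria were 6 of the 131 with sufficient coverage in the samples left (4.58%, compared with 3.62% over the series). Without iron-deficient replicate 1 they were 6 of 94 (6.38%, compared with 3.44% over the series). They were then no longer all higher in iron deficiency, with 5 higher and 1 lower in the first case and 3 higher and 3 lower in the second. Both directions were also found without iron-deficient replicate 2, with 1 higher and 1 lower of 102 (1.96%, compared with 3.4% over the series). The same held with a minimum coverage of 5, with 3 higher and 1 lower of 143 (2.8%, compared with 3.61%). With a minimum coverage of 20, 2 of 33 flanking CpGs met the criteria (6.06%, compared with 2.86%), all higher in iron deficiency.

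By the study's rule a region starts at such a CpG and runs on past up to 5 similar CpGs in a row. From the window it ran from 242506741 to 242506883, with 10 CpGs of which 6 met the criteria, when CpGs below the minimum coverage were skipped. It covered the 6 CpGs of the window, from 242506849 to 242506883, when such a CpG ended the region. The 2 choices part at the CpGs 28 and 22 nt below the window, where iron-sufficient replicate 2 had a coverage of 4 and 1.

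**Figure D2:**
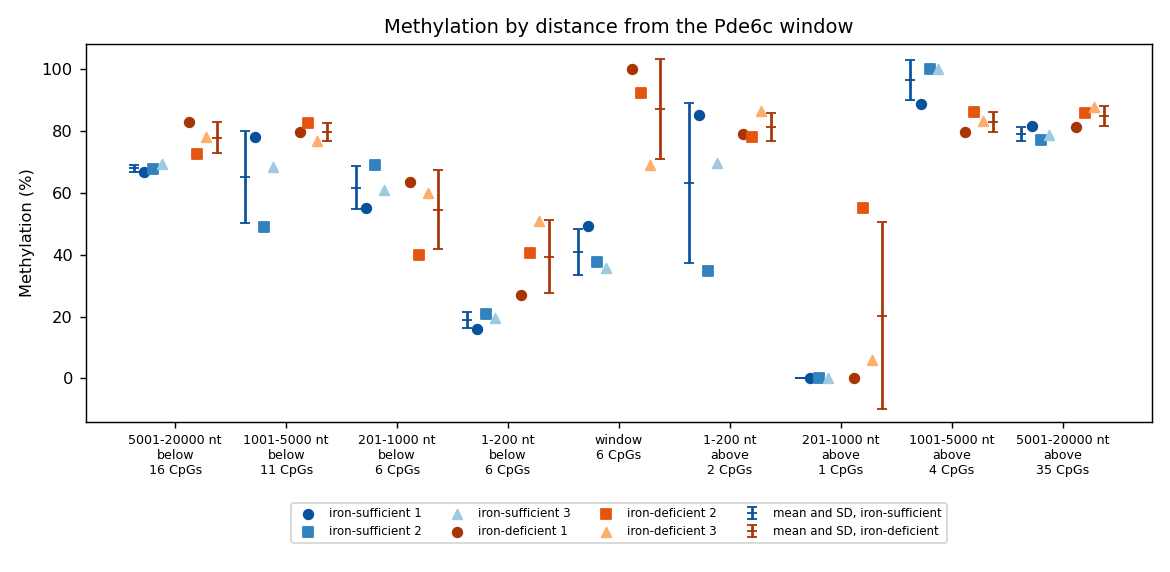
Methylation in percent in bins of distance from the Pde6c window, below it to the left and above it to the right, over the CpGs that every one of the 6 samples covered 10 times or more. Points are samples, and bars are the group mean with the SD (n = 3), which can pass 0% or 100%. By summed reads the groups are apart in the window, within 200 nt below it and beyond 5000 nt below it, and they are apart in the opposite direction in the bin from 1000 to 5000 nt above. No single CpG of that last bin has groups that do not overlap.

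Methylation of the flank below the window, over 39 CpGs, was 49.6%, 54.7% and 52.6% in iron-sufficient replicates 1, 2 and 3 and 71.2%, 57.2% and 65.6% in the iron-deficient animals. The groups did not overlap, at 52.3% ± 2.6 and 64.7% ± 7.1 (SD, n = 3 each), and the difference of 12.4 percentage points had the smallest p that 3 against 3 samples can give (two-sided exact permutation test, p = 0.1). Over the 42 CpGs of the flank above the window, methylation was 81.5%, 75.7% and 78.6% in the iron-sufficient animals and 79.7%, 85% and 86% in the iron-deficient animals. There iron-deficient replicate 1 lay below iron-sufficient replicate 1, and the means differed by 4.97 percentage points (two-sided exact permutation test, p = 0.2). The groups above the window did not overlap with a minimum coverage of 20, at a difference of 3.69 percentage points, or with no minimum, at 6.51 (exact permutation test, p = 0.1 for each). They were not apart when the percentages of the CpGs were averaged, at 3.11 (exact permutation test, p = 0.4), or within 10 kb, at 0.976 (exact permutation test, p = 0.7). Of the 217 CpGs above the window 114 were listed in all 6 samples, so the 6.51 compares samples partly over different CpGs. The difference was 2.5 without iron-deficient replicate 2 (exact permutation test, p = 0.6), 3.24 without iron-deficient replicate 3 and 8.13 without iron-sufficient replicate 3. Leaving out a replicate also admits CpGs that only it covered too thinly, so these values rest on other sets of CpGs. Among 103794 stretches of 20000 nt across the genome with at least 10 CpGs of sufficient coverage, 6.72% had iron-deficient samples that were all above the iron-sufficient ones, as 1 of the 2 flanks did.

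The size of the difference below the window depended on which CpGs were counted and on whether reads or CpGs were averaged. It was 19.2 percentage points with a minimum coverage of 20, 9.79 with a minimum of 5, 5.05 over all 239 CpGs with no minimum and 6.68 when the percentages of the CpGs were averaged, and the groups did not overlap with any of these (exact permutation test, p = 0.1 for each). The 6.68 rests on the same 39 CpGs as the 12.4 above, each with equal weight. Of the 239 CpGs 121 were listed in all 6 samples, so the 5.05 compares samples partly over different CpGs. Within 200 nt below the window, mean coverage ranged from 46.2 in iron-sufficient replicate 2 to 282.5 in iron-deficient replicate 2. Over the whole flank these samples had 37.4 and 94.2. Leaving out a replicate changed the set of CpGs here too, so a change cannot be laid on the sample alone. The difference was 7.39 without iron-sufficient replicate 1 and 7.88 without iron-deficient replicate 1. Without iron-sufficient replicate 2 it was 9.88 with overlapping groups (exact permutation test, p = 0.4, where 0.2 is the smallest possible with 2 against 3 samples).

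The difference was not even along the flanks. In the 200 nt next below the window, over 6 CpGs, methylation was 15.9%, 20.9% and 19.6% in the iron-sufficient animals and 27%, 40.4% and 50.8% in the iron-deficient animals. Among them are CpGs of the unmethylated stretch and of the uneven part next to the window described above, and reads that reach the window can also cover the nearest of them. Of these CpGs only 242506741 had groups that did not overlap. At 242506799 iron-sufficient replicate 2 was at 78.6% and iron-deficient replicate 1 at 0%. Values of a bin sum reads, so CpGs of high coverage weigh more. An average with equal weight per CpG was not made for the bins. Between 200 and 1000 nt below, methylation was instead 61.6% ± 6.8 and 54.4% ± 12.7 (SD, n = 3 each) for iron sufficiency and iron deficiency, and the groups overlapped.

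Farther below, from 5000 to 20000 nt, 16 CpGs were methylated at 66.7%, 67.5% and 69.2% in the iron-sufficient animals and at 82.7%, 72.6% and 77.9% in the iron-deficient animals, without overlap. From 1000 to 5000 nt above the window the summed reads gave the opposite direction. There 4 CpGs were methylated at 88.8%, 100% and 100% in the iron-sufficient animals and at 79.6%, 86.1% and 83.1% in the iron-deficient animals, with every iron-deficient sample below every iron-sufficient one. This direction rested on 242510121 and 242511122, where all iron-sufficient samples were at 100%. The iron-deficient replicates 1, 2 and 3 had 8.33%, 61.1% and 100% at the first and 25%, 100% and 40.9% at the second. At 242511599 and 242511623 the iron-deficient mean was higher instead, by 5.38 and 6.94 percentage points. No single CpG of this bin had groups that did not overlap. Both of these bins changed when a replicate was left out. Leaving one out also admits CpGs that only it covered too thinly, so samples and CpGs change together. Without iron-sufficient replicate 2 the difference was 2.64 instead of 9.92 percentage points in the bin below and -3.98 instead of -13.3 in the bin above, with overlapping groups in each. It was 4.39 below without iron-deficient replicate 2, and above it was -8.39 without iron-sufficient replicate 3 and -7.99, with overlap, without iron-deficient replicate 1. In the remaining 4 bins the groups overlapped. Of the 8 bins, the 3 whose groups were apart by summed reads had an exact permutation p of 0.1 each, or 0.267 after Benjamini-Hochberg adjustment over the 8 bins. With 3 against 3 samples no bin could have passed a threshold of 0.05.

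When all 456 flanking CpGs were counted with no minimum coverage, methylation was 72%, 70% and 73.5% in iron-sufficient replicates 1, 2 and 3 and 77.4%, 76.2% and 79% in the iron-deficient animals. Only 235 of the 456 were listed in all 6 samples, so these values rest partly on different CpGs in each sample. The groups did not overlap, and the means of 71.8% ± 1.8 and 77.6% ± 1.4 (SD, n = 3 each) differed by 5.71 percentage points (two-sided exact permutation test, p = 0.1). Among 65932 stretches of the length of the locus, 40035 nt, in all chromosomes, 9.22% had iron-deficient samples that were all above the iron-sufficient ones, and 2.46% had them all below. The median difference over these stretches was 0.893 percentage points.

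**Figure D3:**
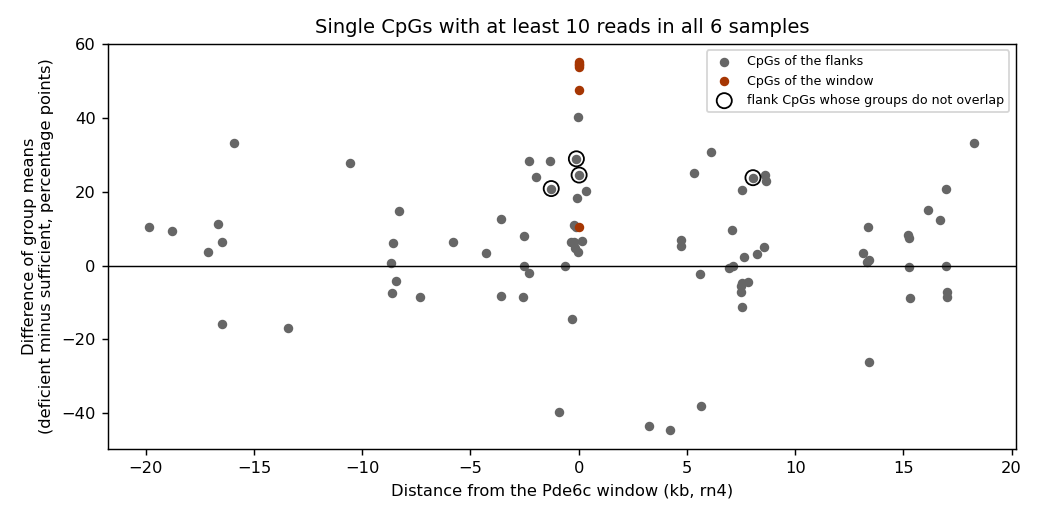
Difference of the group means in percentage points, iron-deficient minus iron-sufficient, at each of the 87 CpGs that every sample covered 10 times or more, against the distance in kb from the Pde6c window. The CpGs of the window are in brown, and circles mark the 4 flanking CpGs whose groups do not overlap. Of the 81 flanking CpGs 52 lie above 0 and 25 below it.

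At single CpGs of the flanks the iron-deficient mean was higher at 52, lower at 25 and equal at 4 of 81, with a median difference of 5.38 percentage points. The share that was higher was 64.2% in the flanks and 46.7% over the CpGs of the series, where 2190026 were higher, 2048099 lower and 448808 equal and the median was 0. No flanking CpG reached the difference of 46.2 percentage points of the window, which 1.48% of the CpGs of the series did. In the iron-sufficient mean 40 flanking CpGs (49.4%, compared with 47% over the series) were above 80%, 31 between 20% and 80% and 10 below 20%.

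Differences between animals of one group were large along the whole locus. At 24 of the 81 flanking CpGs (29.6%) the 3 iron-sufficient samples alone spanned more than the 46.2 percentage points that separated the groups in the window, and at 23 (28.4%) the 3 iron-deficient samples did. Over the CpGs of the series the shares were 27.6% and 25.5%. In the window, 0 of 6 CpGs had such a span in the iron-sufficient group and 1 of 6 in the iron-deficient group, at 242506875. The study chose the window by a p-value that favours a small spread within groups, so these counts only describe that choice. Among the CpGs of the locus that a given sample covered 10 times or more, between 45.3% and 68.3% were read as exactly 0% or exactly 100%, and the shares over the series were 44.5% to 72.8%.

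The locus was also compared in fixed tiles of 1000 nt, with at least 5 CpGs and a coverage of at least 50 in every sample, by edgeR's quasi-likelihood test across all 894922 such tiles. Of these, 22 touched the locus by position and 21 of them did not hold the window. The first of the 21, from 242486000 to 242486999, reaches past the lower end of the locus, and its CpGs all lie outside it. None of the 21 was called at a Benjamini-Hochberg adjusted p of 0.05 by edgeR, 0 had an unadjusted p under 0.05, and limma gave 0 and 0. Over all tiles the calls were 0% at the adjusted threshold and 3.01% at the unadjusted one. Since no tile of the genome was called, the adjusted count of 0 in the locus does not show that its tiles did not differ.

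The smallest edgeR p outside the window, 0.153 (unadjusted), belonged to the tile from 242515000 to 242515999, methylated at 87.6%, 66.2% and 68.2% in iron-sufficient replicates 1, 2 and 3 and at 87.8%, 79.7% and 95% in the iron-deficient animals. It was followed by the tile from 242491000 to 242491999 with an edgeR p of 0.211 (unadjusted). There the means were 83.9% ± 5.1 and 91.5% ± 3 (SD, n = 3 each). The edgeR adjusted p was 1 for both tiles, and their groups overlapped. By limma the smallest unadjusted p outside the window was 0.126, at another tile. Among the 21 tiles the groups did not overlap in 1, from 242512000 to 242512999, which was named after its values were seen. It was methylated at 67%, 56.2% and 68.1% in the iron-sufficient animals and at 71.1%, 82.6% and 71.8% in the iron-deficient animals, a difference of 11.4 percentage points with an unadjusted edgeR p of 0.256. The share of tiles of the genome whose groups do not overlap was not counted, so the 1 of 21 has no background here. The widest spread was in the tile from 242524000 to 242524999, methylated at 42.7%, 17.6% and 72.4% in the iron-sufficient animals and at 20%, 97.5% and 11% in the iron-deficient animals, which was named after its values were seen.

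The tile from 242506000 to 242506999 holds the window among 23 CpGs. It was methylated at 35.2%, 40.9% and 32.4% in iron-sufficient replicates 1, 2 and 3 and at 47.1%, 54.9% and 64% in the iron-deficient animals. The groups did not overlap, and the difference of 19.2 percentage points was smaller than the 46.2 of the window. The tile also holds the CpGs of the unmethylated stretch and those between it and the window. Since it holds the CpGs that the window was chosen on, no test is given for it.

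**Figure D4:**
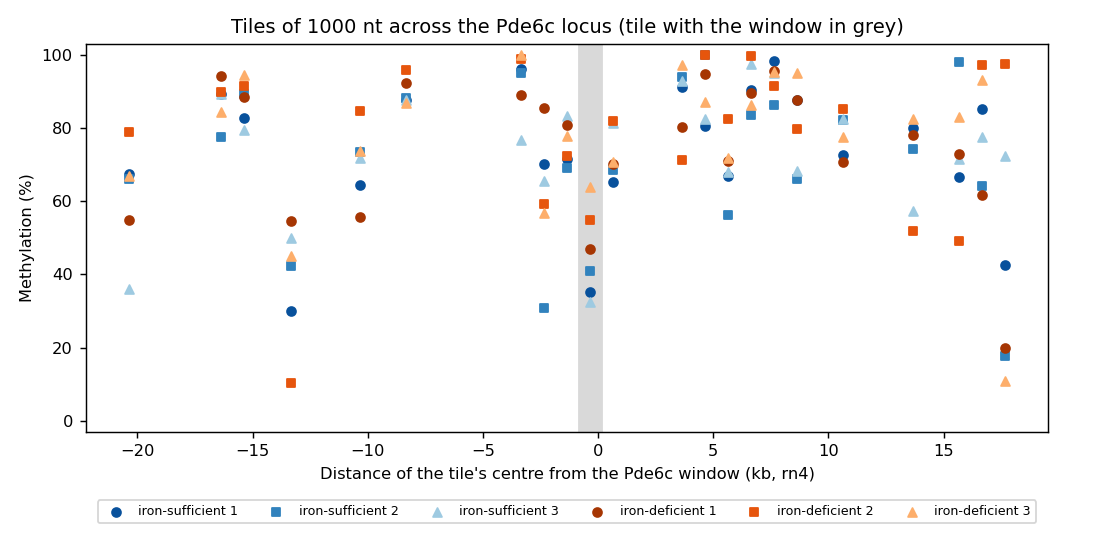
Methylation in percent of each sample in the 22 tiles of 1000 nt that touch the Pde6c locus by position, the first of which holds no CpG of it, against the distance in kb of the tile's centre from the window. The tile with the window is in grey, with the iron-deficient samples at 47.1% to 64% and the iron-sufficient ones at 32.4% to 40.9%, and the samples of each group are spread widely in several other tiles.

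The values of the window in the 6 samples were also set beside those of the tiles of the genome, as a description. Of the 894922 tiles 1 lay within 10 percentage points of the window in every sample. The nearest in Euclidean distance over the 6 samples, at 15.4 percentage points, was another tile, which missed that limit in iron-deficient replicate 3. It lies on chromosome 1 from 177161000 to 177161999 (rn4), with 45.8%, 34.9% and 38.8% in the iron-sufficient animals and 90.4%, 91.1% and 79.5% in the iron-deficient animals. The next was the tile from 5419000 to 5419999 on the same chromosome, at a distance of 16.4. After it came chr8:116723000-116723999, at 16.5. A tile averages over 1000 nt and the window spans 35 nt, so features of different length are set side by side, and how many tiles lie as near to another profile was not counted.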

How the data were processed

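WGBS of hippocampi from 3 iron-deficient and 3 iron-sufficient rats was used. The sample labels gave each group and replicate number. The authors trimmed adapters, aligned reads to rn4 with BS Seeker, used read 1 alone where mates overlapped and joined the C and G of a CpG. The values the authors deposited are, for each CpG, a methylated fraction and a coverage, which is a count of reads, without smoothing and for each sample alone. The sources used here do not say whether duplicate reads were removed or whether positions count from 0 or 1.

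Methylated reads were recovered as fraction times coverage, which was within 0.01 of a whole number at all CpGs. Methylation of a region was the sum of methylated reads over the sum of coverage. Median coverage of 17 to 33 per CpG limits single CpGs to wide intervals. Differences between groups were tested by exact permutation, two-sided (scipy 1.17.1, Python 3.11.15), for which the smallest p is 0.1 with 3 against 3. Tiles were fitted over the genome by edgeR 4.0.16 (glmQLFit in its legacy form, common dispersion, sample effects) and, as an alternative, by limma 3.58.1 with a pseudocount of 1 (R 4.3.3). The permutation p ranks the observed difference among all splits of these samples. The edgeR p rests on a dispersion common to the tiles of the genome together with the spread between samples in the tile. Neither takes account of possible littermates.

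The window, the distance bins and the tests were chosen with earlier results of these data known. Named CpGs were those of the window and, among flanking CpGs whose groups did not overlap, the 3 largest increases and 3 largest decreases, of which there were 0. Named tiles were the 3 with the smallest edgeR p in the locus, the first of which holds the window, and the 3 of the genome nearest the window. The stretches below the window were set after their profile was seen. RefSeq tables of GRCr8 were used for gene names and order only, and no sequence of Pde6c was matched in them.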

Additional observations from a re-analysis of the deposited data

How the results depend on the processing

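The settings that leave out the second CpG of the window, the replicates left out of the distance bins and of single CpGs, and the weighted values of single CpGs were chosen after seeing the data. Leaving out a replicate also admits CpGs that only that sample covered too thinly. The difference of the window was 39.7 to 55.3 percentage points with each replicate left out in turn and 45.6 to 53.4 under the other settings. With a minimum coverage of 20 no CpG of the window was left, because iron-deficient replicate 1 had 16 reads. The difference below the window stayed between 7.39 and 11.4 and the one above it between 2.5 and 8.13 percentage points without each replicate, and over 10 kb they were 12.9 and 0.976. The number of flanking CpGs that met the study's criteria lay between 2 and 6 without each replicate, of 86 to 131 with sufficient coverage. These were shares of 1.96% to 6.38%, compared with 3.3% to 3.82% of the CpGs of the series. With each replicate left out, the bin from 200 to 1000 nt above the window lay between -4.27 (without iron-deficient replicate 1; -2.92 without replicate 2) and 27.5, where it rests on 1 CpG with all 6 samples, and the bin from 200 to 1000 nt below it between -14 and 0.0549. The difference in the coverage ratio of the window lay between 0.0659 and 1.64. Tiles outside the window were called in none of the 10 alternatives, in which no tile of the genome was called either, and 1 had an unadjusted p under 0.05 (0.0212) without iron-deficient replicate 1. The replicate numbers were not used as pairs in the main tests. Deviations of same-numbered samples from their group means over the tiles had correlations of 0.00489, 0.00213 and 0.00251. Those of differently numbered samples lay between -0.00383 and 0.000713. Correlations this small do not show whether the numbers mark pairs. With a replicate block the differences below and above the window, 12.4 and 4.97 percentage points, had an exact sign-flip permutation p of 0.25, the smallest that 3 pairs allow, and 0.5, and edgeR called 0 tiles of the locus and 24916 of the genome at an unadjusted p under 0.05, compared with 26906 without it. The median coverage limits what single CpGs can show.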
